A study of Homo sapiens with 12 samples.

Results

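Laminins are the main adhesive proteins of basement membranes. Each is a trimer of 1 alpha, 1 beta and 1 gamma chain, each from its own gene, and is named by its chain numbers, so that laminin-511 holds alpha 5, beta 1 and gamma 1. The beta and gamma chains join inside the cell, and an alpha chain is needed before the trimer is secreted. Epithelial cells make laminins with alpha 3, found at hemidesmosomes, and laminins with alpha 5, while alpha 1, alpha 2 and alpha 4 mark mostly embryonic, muscle and vascular basement membranes. Levels of 8 chain genes (LAMA1, LAMA3, LAMA4, LAMA5, LAMB1, LAMB2, LAMB3 and LAMC1) were taken by gene identifier from a table of 58735 genes, and all 8 passed the filter on low counts. The chain genes LAMA2, LAMB4 and LAMC3 are given where a trimer needs them.

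The RNA came from cancer tissue of GFP-MDA-MB-231, a human breast cancer line of triple-negative, mesenchymal-like type that carries a green fluorescent protein, embedded in fibrin gel in a perfused AngioPlate and collected 5 days after seeding. The hepatic co-culture shared its device with a tissue of HepG2, a hepatoblastoma-derived line, with 2% lung fibroblasts. The cardiac co-culture shared it with a tissue of iPSC-derived cardiomyocytes (iPSC, induced pluripotent stem cell) mixed with cardiac fibroblasts (2%). The monoculture held cancer tissue alone, and each of the 3 groups had 4 libraries of 1 cancer line. The labels call these biological replicates without naming the cultures, so p-values measure the spread between libraries.

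Library totals were 26.2 to 42.4 M counts (M, 1e6) in the hepatic co-culture, 27.0 to 37.4 M in the cardiac co-culture and 35.0 to 42.0 M in monoculture. Levels are counts per 1e6 counts (CPM) after TMM scaling, and a change was called at an adjusted p below 0.05 in edgeR's quasi-likelihood test over 17468 genes. Cardiac replicate 4 lay among the monoculture libraries on the first principal component. Markers of the cancer line summed to 4328 to 4731 CPM in hepatic co-culture and 3937 to 4250 CPM in cardiac co-culture, against 3897 to 4289 CPM in monoculture, with 8 of 8 above 1 CPM. The sum hides differences in both directions. S100A4 averaged 157, 167 and 280 CPM in the same order of groups, and CAV1 513, 555 and 699 CPM. VIM averaged 1098, 920 and 728 CPM, and TGFBI 73.9, 124 and 32.9 CPM. CD44 and AXL also averaged lower in both co-cultures than in monoculture, and MSN and LGALS1 higher.

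Promoter windows of 250 bases before RefSeq transcript starts (GRCh38.p14) were found for 7 of the 8 genes, in 9 windows. Those of LAMA3 and LAMB3, chains of epithelial laminins, and of LAMB1 and LAMC1, partners in laminin-511 of which only LAMB1 was called, are printed 5′ to 3′ on the gene's strand. Capitals mark the AP-1 motif TGANTCA in LAMA3 and LAMB3, and the GC box GGGCGG on either strand in LAMB1 and LAMC1. The LAMA3 window is chr18:23872770-23873019 on the plus strand, the LAMB3 window chr1:209651375-209651624 on the minus strand, the LAMB1 window chr7:108003162-108003411 on the minus strand and the LAMC1 window chr1:183023170-183023419 on the plus strand.
LAMA3: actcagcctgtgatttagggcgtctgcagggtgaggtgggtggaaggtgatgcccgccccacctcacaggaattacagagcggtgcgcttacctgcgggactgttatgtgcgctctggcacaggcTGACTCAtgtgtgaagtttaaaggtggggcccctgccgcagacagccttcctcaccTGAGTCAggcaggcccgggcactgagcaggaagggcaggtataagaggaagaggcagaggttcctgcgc
LAMB3: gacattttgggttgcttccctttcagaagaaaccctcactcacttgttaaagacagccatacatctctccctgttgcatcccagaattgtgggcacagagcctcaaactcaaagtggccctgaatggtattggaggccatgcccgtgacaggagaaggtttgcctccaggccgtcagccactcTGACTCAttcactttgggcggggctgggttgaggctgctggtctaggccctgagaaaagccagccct
LAMB1: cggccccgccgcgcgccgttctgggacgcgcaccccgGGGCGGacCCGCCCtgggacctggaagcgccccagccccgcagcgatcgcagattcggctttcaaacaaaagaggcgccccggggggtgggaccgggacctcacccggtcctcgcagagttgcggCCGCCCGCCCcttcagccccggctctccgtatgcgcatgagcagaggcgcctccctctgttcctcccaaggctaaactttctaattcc
LAMC1: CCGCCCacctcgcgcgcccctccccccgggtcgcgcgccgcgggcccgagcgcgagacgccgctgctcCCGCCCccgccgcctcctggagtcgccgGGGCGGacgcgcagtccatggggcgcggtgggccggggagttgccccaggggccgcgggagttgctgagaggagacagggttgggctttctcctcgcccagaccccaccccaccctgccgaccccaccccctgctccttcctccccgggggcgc

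The LAMA3 window lies at the start of the short alpha 3 form and holds 2 AP-1 matches, starting at positions -125 and -69 from the RefSeq start. A GENCODE 29 transcript of that form begins inside the window, at base 23872840, so both matches lie within this transcript. One of the 3 LAMB3 windows, the one printed, holds 1 match at -67. The motif occurs on either strand in 6.57% of 35116 RefSeq promoter windows of this length, and in no window of LAMA4, LAMA5, LAMB1, LAMB2 or LAMC1. GC boxes were found 5 times in LAMA5, 4 times in LAMB1, 3 times in LAMC1, 1 time each in LAMA3, LAMB2 and every LAMB3 window, and not in LAMA4, against 42.6% of all windows with at least 1. Those of the LAMA3 and LAMB3 windows are not in capitals. A match describes the letters only, and the counts do not separate the forms of LAMA3.

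The alpha chains differed in level by orders of magnitude. LAMA3 encodes alpha 3, an alpha chain of epithelial laminins (chromosome 18, 23689443 to 23956222, plus strand, GRCh38). It had 154, 127, 160 and 120 CPM in the hepatic libraries, 102, 110, 109 and 93.1 CPM in the cardiac libraries and 69.8, 66.3, 54.8 and 59.0 CPM in monoculture. The 3 groups did not overlap, and the hepatic libraries were highest. The log2 fold change was 1.17 ± 0.10 (SE) for hepatic co-culture over monoculture (edgeR adjusted p = 3.41e-07), 0.73 ± 0.10 for cardiac co-culture over monoculture (adjusted p = 0.00156) and -0.44 ± 0.10 for cardiac over hepatic co-culture (adjusted p = 0.00949).

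LAMA5 encodes alpha 5, a broadly expressed epithelial and endothelial chain (chromosome 20, 62307955 to 62367312, minus strand). It had 1777, 1291, 1530 and 1355 CPM in the hepatic libraries, 1291, 1542, 1526 and 1304 CPM in the cardiac libraries and 1045, 1084, 931 and 1027 CPM in monoculture. Both co-cultures lay above every monoculture library and overlapped each other. Over monoculture the log2 fold change was 0.54 ± 0.10 in the hepatic co-culture (edgeR adjusted p = 4.52e-04) and 0.47 ± 0.10 in the cardiac co-culture (adjusted p = 0.0100), and cardiac over hepatic co-culture gave -0.07 ± 0.10 (adjusted p = 0.731). LAMA5 shares 244 exon bases, 1.71% of its exon length, with ADRM1 on the other strand.

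LAMA1 encodes alpha 1, a chain of early embryonic basement membranes (chromosome 18, 6941744 to 7117814, minus strand). It stood at 1.76, 0.21, 0.58 and 0.57 CPM in the hepatic libraries, 0.95, 1.28, 0.95 and 1.87 CPM in the cardiac libraries and 1.44, 1.81, 1.57 and 2.17 CPM in monoculture, or 9 to 78 counts a library. Hepatic replicate 1 lay within the monoculture range and the other hepatic libraries below it. The log2 fold change of -1.18 ± 0.45 for hepatic co-culture over monoculture missed the threshold (edgeR adjusted p = 0.0565), but was called by DESeq2 (-1.18, adjusted p = 0.0335), with no filter (-1.19, 0.0118) and under the replicate block (-1.31, 0.0497). With 1 library left out it ran from -1.97 without hepatic replicate 1 (adjusted p = 0.00208) to -0.84 without hepatic replicate 2 (adjusted p = 0.137), and 2 of the 12 fits called it, the other being that without cardiac replicate 4 (-1.19, adjusted p = 0.0435). LAMA4 encodes alpha 4, a chain of vascular and mesenchymal tissues (chromosome 6, 112108760 to 112254939, minus strand), and had 1.57 to 2.74 CPM in the hepatic libraries, 1.59 to 3.24 CPM in the cardiac libraries and 1.12 to 1.78 CPM in monoculture. Its groups overlapped and no comparison called it.

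**Figure D1:**
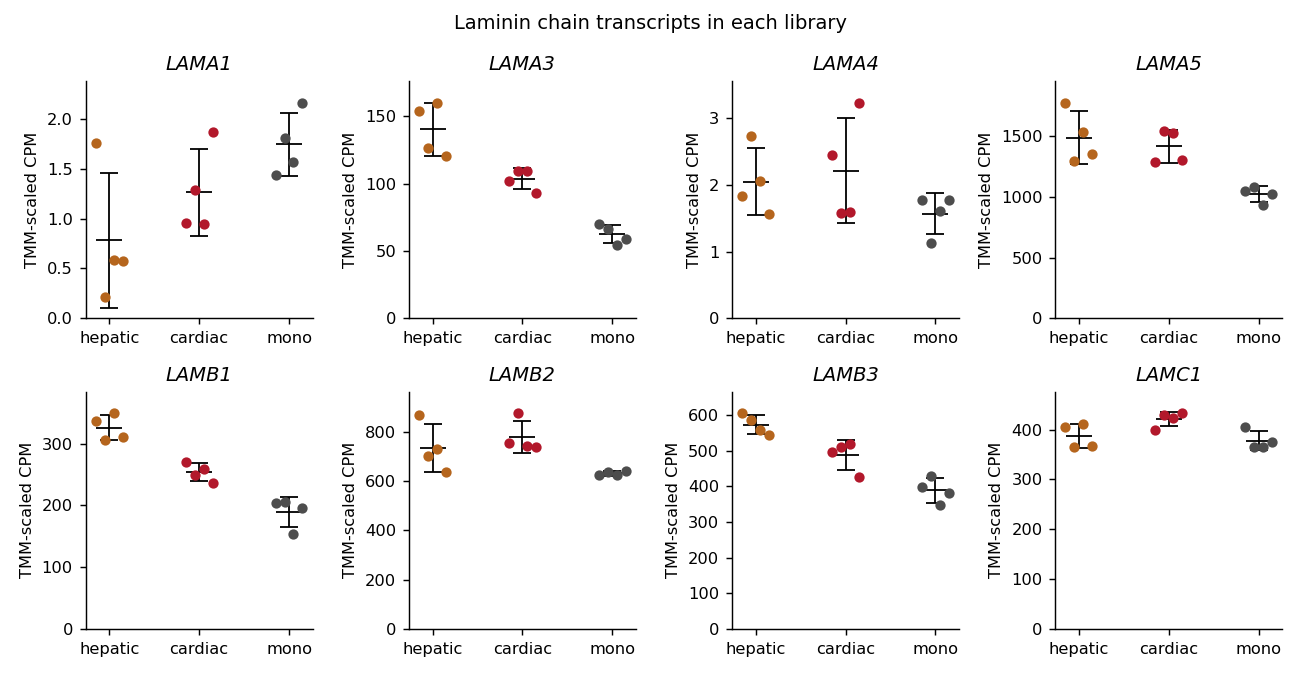
TMM-scaled CPM (vertical axes, linear from 0) of the 8 laminin chain genes in the hepatic co-culture, the cardiac co-culture and monoculture; points are libraries and bars the mean ± SD (n = 4). LAMA3 and LAMB1 separate the 3 groups without overlap, with monoculture lowest, while LAMC1 lies between 365 and 433 CPM in all of them.

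Of the beta chains, LAMB1 and LAMB3 were called higher in both co-cultures and LAMB2 in the cardiac one only, a difference between the co-cultures that did not pass its own test (adjusted p = 0.641). LAMB1 encodes beta 1, the beta chain of most laminins of early tissues (chromosome 7, 107923799 to 108003255, minus strand). It had 336, 306, 349 and 311 CPM in the hepatic libraries, 270, 249, 259 and 235 CPM in the cardiac libraries and 204, 206, 154 and 196 CPM in monoculture. As for LAMA3, the 3 groups did not overlap. The log2 fold change was 0.78 ± 0.08 for hepatic co-culture over monoculture (edgeR adjusted p = 4.84e-06) and 0.42 ± 0.08 for cardiac co-culture over monoculture (adjusted p = 0.00976). Cardiac over hepatic co-culture gave -0.36 ± 0.08 (adjusted p = 0.0128), a call lost without hepatic replicate 3 (-0.33, adjusted p = 0.0546). LAMB1 shares 70 exon bases, 0.86% of its exon length, with DLD on the other strand.

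LAMB3 encodes beta 3, an epithelial chain that assembles with alpha 3 (chromosome 1, 209614870 to 209652466, minus strand). It had 604, 584, 557 and 545 CPM in the hepatic libraries, 497, 509, 520 and 425 CPM in the cardiac libraries and 397, 429, 346 and 380 CPM in monoculture. The hepatic libraries lay above all others, while cardiac replicate 4 fell just below the highest monoculture library. Over monoculture the log2 fold change was 0.56 ± 0.08 in the hepatic co-culture (edgeR adjusted p = 5.80e-05) and 0.33 ± 0.08 in the cardiac co-culture (adjusted p = 0.0177). The cardiac call was lost without cardiac replicate 2 or 3 or monoculture replicate 3 or 4 (log2 fold changes 0.31, 0.30, 0.28 and 0.32, with adjusted p between 0.0559 and 0.0693). Cardiac over hepatic co-culture gave -0.23 ± 0.08, which missed the threshold (adjusted p = 0.0872).

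LAMB2 encodes beta 2, a chain of muscle, kidney and vascular basement membranes (chromosome 3, 49121114 to 49133118, minus strand). It had 869, 702, 733 and 640 CPM in the hepatic libraries, 755, 876, 743 and 739 CPM in the cardiac libraries and 626, 636, 624 and 643 CPM in monoculture. The cardiac libraries lay above every monoculture library, and 1 hepatic library lay within the monoculture range. The log2 fold change was 0.30 ± 0.08 for cardiac co-culture over monoculture (edgeR adjusted p = 0.0356) and 0.22 ± 0.08 for hepatic co-culture over monoculture (adjusted p = 0.0593). The cardiac call was lost in 7 of the 12 fits without 1 library: without cardiac replicate 1, 2 or 3, or any 1 monoculture library (log2 fold changes 0.24 to 0.32, adjusted p between 0.0531 and 0.137).

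LAMC1 encodes gamma 1, the gamma chain of most laminins (chromosome 1, 183023460 to 183145592, plus strand). It had 404, 365, 411 and 368 CPM in the hepatic libraries, 400, 429, 424 and 433 CPM in the cardiac libraries and 406, 366, 365 and 376 CPM in monoculture. The groups overlapped. The log2 fold change was 0.03 ± 0.06 for hepatic co-culture over monoculture (edgeR adjusted p = 0.740) and 0.16 ± 0.06 for cardiac co-culture over monoculture (adjusted p = 0.135). The fitted hepatic fold of 1.02 had a 95% interval from 0.94 to 1.12.

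LAMA2 and LAMC3 stayed between 0.75 and 3.32 CPM in every library with no call, and LAMB4, at most 0.61 CPM, was too low to be tested.

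In the hepatic co-culture 4 of the 8 genes were called higher and 0 lower than in monoculture, where 14.4% of all tested genes were called higher, 13.6% lower and 28% in either direction. In the cardiac co-culture 5 of 8 were called higher and 0 lower, against 4.93% of all tested genes called higher, 3.33% lower and 8.26% in either direction. With 1 library left out, edgeR called 263 to 3378 of all tested genes in the cardiac comparison, against 1443 with all libraries, and 3 to 5 of the 8. Between the co-cultures 2 of 8 were called lower in the cardiac one, and 0 higher, against 2.91% of all tested genes called lower, 3.27% higher and 6.18% in either direction. At an unadjusted p below 0.05, edgeR gave 5 higher and 1 lower in the hepatic comparison, 6 higher and 0 lower in the cardiac one, and 3 lower and 0 higher between the co-cultures. DESeq2 called 4 higher and 1 lower, 5 higher and 0 lower, and 2 lower and 0 higher in these comparisons. The shares of all tested genes above are for adjusted edgeR calls only. Over all tested genes, DESeq2 called 2372 in the cardiac comparison, against 1443 by edgeR. The other DESeq2 counts and the unadjusted counts are not set against all tested genes, and no excess is read from them. The median log2 fold change of the 8 genes was 0.47 over monoculture in the hepatic co-culture and 0.37 in the cardiac co-culture, against 0.01 over all tested genes in each, and 0.00 between the co-cultures. CPM ranges were apart for 4 of 8 genes in the hepatic comparison (30.5% of all tested genes, 15.1% with the co-culture higher), 4 of 8 in the cardiac comparison (15.2%, 7.77% with the co-culture higher) and 3 of 8 between the co-cultures (11.9%). Both comparisons with monoculture use the same 4 monoculture libraries.

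**Figure D2:**
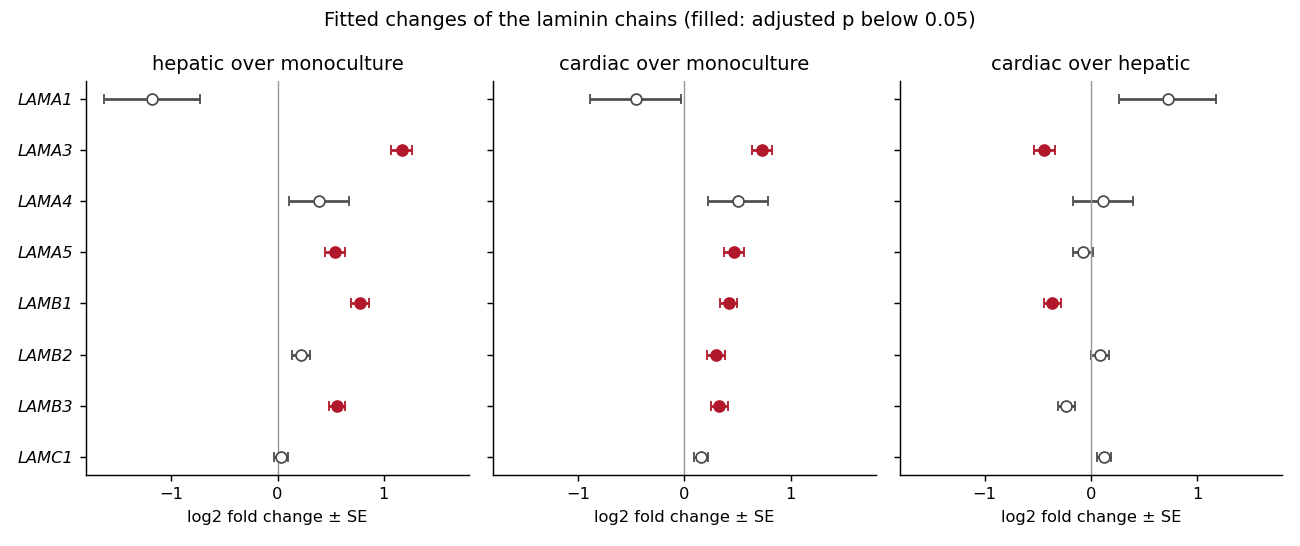
Fitted log2 fold changes with standard errors (horizontal axes) of the 8 laminin chain genes in the 3 comparisons; filled red points passed an adjusted p of 0.05. LAMA3 has the largest called change in each panel, at 1.17, 0.73 and -0.44, and LAMC1, at 0.03, 0.16 and 0.12, was not called in any.

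The order of the chains was taken per kb of exon, with all exons of a gene merged, and depends on this length. In the hepatic co-culture the order was LAMB3 (122 CPM per kb), LAMB2 (107), LAMA5 (104), LAMC1 (46.1), LAMB1 (40.0), LAMA3 (9.56), LAMA4 (0.18) and LAMA1 (0.05). In the cardiac co-culture LAMB2 (113 CPM per kb) came before LAMB3 (104) and LAMA5 (99.1), and in monoculture LAMB2 (92.1) before LAMB3 (82.8) and LAMA5 (71.5). In every group the ranges of these top 3 chains overlapped between neighbours. LAMC1, LAMB1 and LAMA3 followed in that order, each apart from its neighbours, at 50.1, 31.1 and 7.06 CPM per kb in the cardiac co-culture and 45.0, 23.3 and 4.26 CPM per kb in monoculture. LAMA4 and LAMA1 overlapped in monoculture and were apart in both co-cultures.

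**Figure D3:**
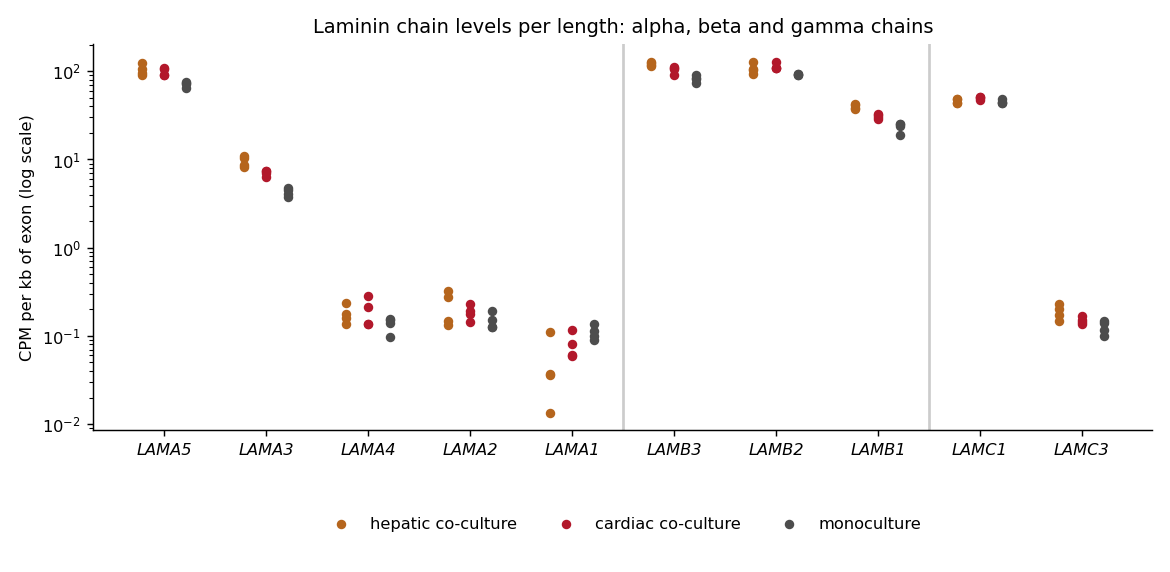
CPM per kb of exon (vertical axis, log scale) of 10 laminin chain genes in every library; points are libraries, coloured by group, and grey lines part the alpha, beta and gamma chains. LAMB4 is left out because some libraries hold 0 counts; LAMA5 averages 104, 99.1 and 71.5 CPM per kb in the hepatic co-culture, the cardiac co-culture and monoculture, while LAMA1, LAMA2, LAMA4 and LAMC3 lie below 1.

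Among the alpha chains of the 8 genes, LAMA3 took 8.41% ± 0.68 of the per-length sum in the hepatic co-culture, 6.65% ± 0.33 in the cardiac co-culture and 5.59% ± 0.36 in monoculture (SD, n = 4 each). The groups did not overlap in any pair, and each pair gave an exact permutation p of 0.0286 (two-sided, n = 4 each), the smallest that 4 against 4 libraries allow, or 0.0571 after adjustment over 6 tests. With the length of the short LAMA3 transcript (5007 bases) the shares were 21.2%, 17.3% and 14.8% in the same groups. LAMB3 took 45.4% ± 1.86 of the beta chains in the hepatic co-culture, 41.8% ± 1.91 in the cardiac co-culture and 41.7% ± 1.57 in monoculture (SD, n = 4 each). Its share had an exact permutation p of 0.0571 between hepatic co-culture and monoculture, 0.886 between cardiac co-culture and monoculture and 0.0571 between the co-cultures (n = 4 each, adjusted p = 0.0686, 0.886 and 0.0686).

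Of 13 known trimers examined, all 3 chains reached 1 CPM in every library for 11 in the hepatic co-culture, 11 in the cardiac co-culture and 10 in monoculture. This minimum was set on CPM, not divided by exon length. Laminin-111 and laminin-121 missed it in both co-cultures, through LAMA1 in at least 1 library. Laminin-213, laminin-423 and laminin-523 missed it in monoculture, through LAMC3. At 5 CPM the same 4 trimers were left in each group: laminin-311, laminin-321, laminin-511 and laminin-521. Trimers with beta 3 were not examined here, so the list is not complete. These are statements about transcripts, and protein, assembly and secretion were not measured.

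The transcript level of the scarcest chain was taken as an upper bound for each trimer, and chains are shared between trimers. LAMA3 was scarcest in laminin-311 and laminin-321, at 9.56 ± 1.35 CPM per kb in the hepatic co-culture, 7.06 ± 0.53 in the cardiac co-culture and 4.26 ± 0.47 in monoculture (SD, n = 4 each). LAMB3, its beta partner in epithelia, exceeded it throughout: the LAMA3 to LAMB3 ratio, taken after the levels were seen, was 0.078 in the hepatic co-culture, 0.068 in the cardiac co-culture and 0.051 in monoculture. With the short LAMA3 length the bound was 28.0, 20.7 and 12.5 CPM per kb in the same groups, and LAMA3 was still scarcest. The LAMA3 to LAMB3 ratio was then 0.23, 0.20 and 0.15.

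LAMB1 was scarcest in laminin-511, at 40.0 ± 2.49, 31.1 ± 1.79 and 23.3 ± 2.99 CPM per kb in the hepatic co-culture, the cardiac co-culture and monoculture (SD, n = 4 each). LAMC1 was scarcest in laminin-521, at 46.1 ± 2.85, 50.1 ± 1.75 and 45.0 ± 2.27 CPM per kb in the same order of groups. The LAMB1 to LAMC1 ratio, chosen likewise, was 0.87 ± 0.01 in the hepatic co-culture, 0.62 ± 0.06 in the cardiac co-culture and 0.52 ± 0.06 in monoculture. The scarcest chain of laminin-511 and this ratio depend on the length used. The merged exons hold 8140 bases for LAMB1 and 8406 for LAMC1, and the longest coding transcripts 5766 and 7889. With the latter lengths LAMC1, not LAMB1, would be the scarcer in the hepatic co-culture. Trimers with LAMA1, LAMA2, LAMA4 or LAMC3 were bounded at 0.22 CPM per kb or less on average in every group, and at 0.32 or less in single libraries.

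**Figure D4:**
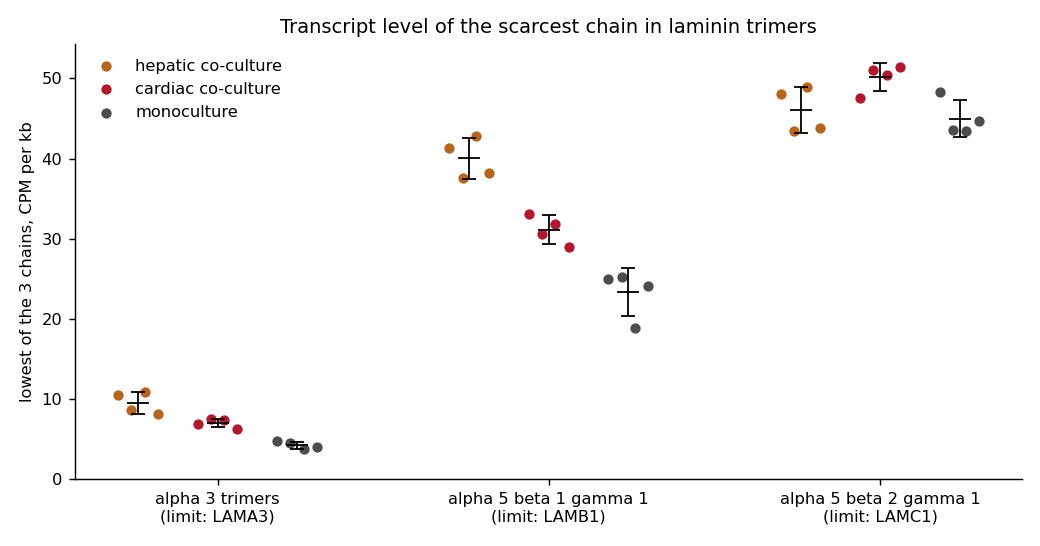
Level of the scarcest chain by merged exon length (vertical axis, CPM per kb of exon, linear from 0) in laminin trimers. The alpha 3 trimers are laminin-311 and laminin-321, and the others laminin-511 and laminin-521. Alpha 3 trimers with beta 3 were not examined. Points are libraries and bars the mean ± SD (n = 4). The bound of laminin-511 averages 40.0, 31.1 and 23.3 CPM per kb in the hepatic co-culture, the cardiac co-culture and monoculture, while that of laminin-521 lies between 43.4 and 51.5 in every library.

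Profiles most like 3 members, by root mean square difference of centred log2 CPM over the 12 libraries, were LTBP4 (0.10), MTMR11 (0.11) and MMP14 (0.11) for LAMA3. For LAMB1 they included KRT19 (0.08) and GALNT6 (0.09), and for LAMA1 they were CMKLR1 (0.43), CTSS (0.46) and SNAI2 (0.50). LTBP4, which binds latent TGF-beta, averaged 318 CPM in hepatic co-culture and 226 CPM in cardiac co-culture, against 145 CPM in monoculture. These genes were searched among at least 11623 candidates and carry no test.

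Of 12 laminin receptor genes, 4 were called higher and 2 lower in the hepatic co-culture, and 2 higher in the cardiac co-culture, both against monoculture. Of all tested genes, 14.4% were called higher and 13.6% lower in the hepatic comparison, and 4.93% higher in the cardiac one. BCAM, a receptor of alpha 5, averaged 248 ± 49.2 CPM in hepatic co-culture and 172 ± 33.8 CPM in cardiac co-culture, against 111 ± 10.2 CPM in monoculture (SD, n = 4 each). Its log2 fold change over monoculture was 1.16 ± 0.16 in hepatic and 0.63 ± 0.16 in cardiac co-culture, where the call was lost without cardiac replicate 1, 2 or 3 or monoculture replicate 1, 3 or 4 (0.51 to 0.69, adjusted p between 0.0540 and 0.0942). ITGA3, the alpha subunit of the main alpha 3 and alpha 5 laminin integrin, had a log2 fold change of 0.42 ± 0.08 in the hepatic co-culture, and ITGA2 of -0.28 ± 0.06. ITGB4, the beta 4 integrin subunit of hemidesmosomes, had 0.46 ± 0.11 and PLEC, which ties it to keratin, -0.37 ± 0.09, the 2 of 6 hemidesmosome genes called there, near the 28% of all tested genes. In the cardiac co-culture 0 of 6 were called by edgeR or DESeq2, and 0 had an unadjusted p below 0.05, where edgeR called 8.26% of all tested genes.

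Of 16 tested basement membrane partners, 5 were called higher and 3 lower in the hepatic co-culture and 2 higher in the cardiac co-culture, both against monoculture. The same shares of all tested genes apply here (14.4%, 13.6% and 4.93%). AGRN, a proteoglycan that binds laminins, had log2 fold changes of 0.73 ± 0.11 and 0.43 ± 0.11 over monoculture in the hepatic and cardiac co-cultures, and the cardiac call was lost without those same 6 libraries (0.36 to 0.44, adjusted p between 0.0587 and 0.0951). PXDN, which crosslinks collagen IV, had 0.52 ± 0.11 in the cardiac co-culture. FBLN1, fibulin 1, averaged 0.86 ± 0.15 CPM in the hepatic co-culture, against 6.12 ± 0.98 CPM in monoculture. Of 6 tested laminin-processing proteases, 3 were called higher in the hepatic co-culture and 2 in the cardiac co-culture, against 14.4% and 4.93% of all tested genes. MMP14, a membrane-anchored matrix metalloprotease, averaged 1031 ± 183 CPM in hepatic co-culture and 783 ± 117 CPM in cardiac co-culture, against 508 ± 58.0 CPM in monoculture, and its cardiac call was lost without cardiac replicate 2 (0.56, adjusted p = 0.0518). PLAT, tissue plasminogen activator, had 0.28 ± 0.08 in the cardiac co-culture (edgeR adjusted p = 0.0473), a call lost in the 2-group fit (0.28, adjusted p = 0.0509). It was also lost without hepatic replicate 2 or 3, cardiac replicate 1, 2 or 3, or monoculture replicate 1, 3 or 4 (0.24 to 0.32, adjusted p between 0.0569 and 0.144). Of 13 genes of dystroglycan glycosylation, 1 was called higher and 3 lower in the hepatic co-culture and 0 in the cardiac co-culture, against 28% and 8.26% of all tested genes called in either direction. DESeq2 also gave 0 cardiac calls there and edgeR 2 at an unadjusted p below 0.05, with B4GAT1 closest at 0.27 ± 0.10 (edgeR adjusted p = 0.0842).

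Markers of fibroblasts, hepatocytes, cardiomyocytes and endothelial cells were summed as well. Summed fibroblast markers were 30.5 to 56.1 CPM in hepatic co-culture and 42.6 to 54.5 CPM in cardiac co-culture, against 36.3 to 44.6 CPM in monoculture, and THY1 and POSTN, of 11 markers, were at 0 in every library. COL6A3 made up most of that sum (25.0, 33.7 and 26.9 CPM on average in the same groups). The sum hides single markers that differed in both directions. In hepatic co-culture COL1A1 averaged 8.49 CPM, COL1A2 4.55 CPM and COL3A1 0.63 CPM, against 5.95, 1.56 and 0.09 CPM in monoculture. LUM, PDGFRA and FAP were also higher there, at 0.32 CPM or less. DCN averaged 0.28 CPM and PDGFRB 2.22 CPM in hepatic co-culture, against 2.48 and 2.94 CPM in monoculture. Summed hepatocyte and HepG2 markers (12 genes) were 35.1 to 58.5, 69.8 to 96.0 and 42.0 to 74.5 CPM in hepatic co-culture, cardiac co-culture and monoculture. Nearly all of it was SERPINA1 (46.5, 82.0 and 57.4 CPM on average), the 1 of the 12 that reached 1 CPM on average. Summed cardiomyocyte markers (12 genes) were 0.85 to 2.31, 1.43 to 4.39 and 2.52 to 3.28 CPM. Most of it was RYR2 (1.270, 2.199 and 2.395 CPM on average). MYH6 (0 to 21 counts a library), MYL7 (0 to 8), ACTN2 (0 to 8) and MYBPC3 (0 to 2) had counts in the cardiac co-culture only. In the other direction, NPPB and MYH7 were at 0 in every cardiac library. NPPB had at most 3 counts in hepatic and 6 in monoculture libraries, and MYH7 at most 1 in hepatic libraries. Summed endothelial markers (10 genes) were 130 to 144, 116 to 134 and 98.1 to 109 CPM. ESAM averaged 80.3, 69.0 and 64.5 CPM in these groups, ROBO4 34.4, 35.4 and 24.7 CPM, PECAM1 15.5, 10.2 and 10.9 CPM and KDR 1.26, 2.35 and 3.22 CPM. TIE1 averaged 3.15, 1.93 and 0.37 CPM, VWF 2.86, 1.62 and 0.60 CPM and TEK 0.60, 0.41 and 0.29 CPM. ERG was at 0 in every library, and CDH5 and CLDN5 averaged at most 0.12 CPM. The part of these markers in the laminin results was not tested. Fewer cells of a type and less RNA per cell cannot be told apart in these bulk libraries.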

How the data were processed

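The authors deposited unnormalized read counts per gene. The submitters' processing notes name HISAT2 2.2.1, featureCounts 2.0.6, DESeq2 1.42.0 and GRCh38, without roles or settings. The annotation release, read filters and strand setting were not stated in the sources used. The labels' protocols describe both stranded and unstranded libraries, so reads of overlapping genes cannot be told apart. Symbols and exon lengths came from GENCODE 29. Counts were filtered with filterByExpr, scaled by TMM and tested with edgeR 4.0.16 (R 4.3.3), robust quasi-likelihood, in 1 fit over 12 libraries, two-sided, with Benjamini-Hochberg adjustment over 17468 genes. Variation between libraries was 14.9% (common biological coefficient). The test was also run on simulated counts, with far fewer planted changes than the genes called in the hepatic comparison. Its outcome is not given here. Shares were compared by exact permutation tests. Named genes were the 8 members, further laminin chains, the 3 genes of smallest adjusted p per context list and comparison, and the 3 nearest profiles of the 3 most variable members, less items not reported here. The members and lists were chosen with earlier results of these data known. Alternatives were other scalings, DESeq2 1.42.0, no filter, 2-group fits, a replicate block and each library left out. Correlations of deviations between libraries of the same replicate number ran from -0.08 to 0.11 (mean 0.01). Between different numbers they ran from -0.17 to 0.11 (mean -0.003). These are the labels' replicate numbers. The library names number the cardiac libraries otherwise than the other groups, and pairing by those names was not tested.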

Additional observations from a re-analysis of the deposited data

Results flagged for a closer look

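Of 54 groups of 4 libraries examined for a sample far from the others, 5 had one, and chance alone flags about 1 in 20 groups. All 5 were in the cardiac co-culture. LAMB2 was 876 CPM in cardiac replicate 2, against 739 to 755 CPM in the other cardiac libraries, and without it the cardiac log2 fold change over monoculture was 0.24 (adjusted p = 0.137 in edgeR). LAMB4 was 0.34 CPM in the same library. The share of LAMA3 among the alpha chains was 7.14% in cardiac replicate 1. Summed fibroblast markers were 54.5 CPM in cardiac replicate 4, and summed endothelial markers 134 CPM in cardiac replicate 3.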

How the results depend on the processing

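The 4 hepatic calls (LAMA3, LAMB1, LAMB3, LAMA5) and the 5 cardiac calls against monoculture, and both calls between the co-cultures, were kept under every other scaling, tool, filter and fit tried. With 1 library left out, 4 to 6 of the 8 genes were called in the hepatic co-culture, 3 to 5 in the cardiac co-culture and 1 to 3 between the co-cultures. Over all tested genes these fits called 3660 to 5529, 263 to 3378 and 676 to 1269 in the same comparisons. Calls gained in the hepatic co-culture were LAMB2 (upper-quartile scaling 0.26, no filter 0.21, 2-group fit 0.22) and LAMA1 (DESeq2 -1.18, no filter -1.19). LAMB3 between the co-cultures passed with no filter (-0.23). Under the replicate block the calls of members numbered 5, 5 and 2 in the hepatic, cardiac and cardiac against hepatic comparisons. LAMA1 gained its hepatic call there (-1.31, edgeR adjusted p = 0.0497), with no other change of call among the members. Counts over all genes under this block are not given here. Genes called in the cardiac co-culture numbered 1443, but 2372 with DESeq2, 2219 with no filter and 263 to 3378 with 1 library left out, the highest without cardiac replicate 4.

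Some small differences changed sign. Cardiac co-culture over monoculture turned to 0.0152 for ITGA6 and 0.0102 for CD151 with upper-quartile scaling. Cardiac over hepatic co-culture turned to 0.0119 for POMK under the replicate block. With 1 library left out, the cardiac over monoculture values ran from -0.0811 to 0.0158 (DST), -0.0470 to 0.0208 (ITGA6) and -0.720 to 0.0723 (COL4A6). Cardiac over hepatic values ran from -0.134 to 0.0242 (LAMA5), -0.133 to 0.289 (LAMA4), -0.00242 to 0.0809 (B3GALNT2), -0.164 to 0.0977 (POMK) and -0.0114 to 0.163 (SDC4). The LAMB3 share difference, cardiac minus monoculture, ran from -0.65 to 0.79 points. Trimers passing numbered 4 in each group at 5 CPM, and at 0.5 CPM 11 in the hepatic co-culture, 13 in the cardiac co-culture and 13 in monoculture. The cause of these changes was not tested, and LAMA1, LAMA2, LAMA4 and LAMC3, between 0.21 and 3.32 CPM, rest on few counts.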
